A study of Mus musculus with 10 samples.

Results

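The transporters described are 8 genes whose products carry amino acids across the cells of the renal proximal tubule, Slc6a18, Slc6a19, Slc7a7, Slc7a8, Slc7a9, Slc7a13, Slc3a1 and Slc3a2, chosen by name from the 28808 gene symbols of the series. All 8 were found in the deposited count tables. Their counts were followed in barcodes of the proximal convoluted and the proximal straight tubule, which were gated on the raw counts of 4 convoluted and 7 straight marker genes. No member took part in the gate. The cells came from cortex of mouse kidney at 4 weeks of age, normal (the control) or injured, and were profiled by Drop-seq, which captures single cells in droplets. Single libraries stand for the control and for days 1, 2 and 4 past the injury, and pairs of libraries for days 7, 11 and 14. GEO's labels give neither genotype nor strain, sex, kind of injury or number of animals, and they do not say whether the 2 libraries of a day come from different animals. P-values therefore measure the spread between these libraries, which may be technical. After filtering, 52797 of 64803 barcodes were kept, of which 18540 were convoluted and 4148 straight. The 2 libraries of day 11 were deposited with barcodes down to 300 genes, and the other libraries down to 500. Of their 10800 and 10711 barcodes, the day 11 libraries kept 5409 and 5283 under the filter, which asked for at least 500 genes in every library.

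Amino acids filtered by the glomerulus are taken back almost entirely in the proximal tubule, by carriers in the luminal membrane and others in the basolateral membrane. Slc6a19 (B0AT1) and Slc6a18 (B0AT3) are sodium-coupled carriers of neutral amino acids in the luminal membrane. They need an accessory protein, Tmem27 (collectrin), to reach it. The Slc7 members are light chains that work as heterodimers with a heavy chain of the Slc3 family. Slc3a1 (rBAT) is the luminal heavy chain, which pairs with Slc7a9 (b0,+AT) to take up cystine and cationic amino acids and with Slc7a13 (AGT1), the partner known from the straight tubule. Slc3a2 (4F2hc, CD98) is the basolateral heavy chain, which pairs with Slc7a7 (y+LAT1), the exit route of cationic amino acids, and with Slc7a8 (LAT2), an exchanger of neutral amino acids. Loss of SLC3A1 or SLC7A9 is the known cause of cystinuria, loss of SLC6A19 of Hartnup disorder and loss of SLC7A7 of lysinuric protein intolerance.

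The genes lie at 7 places in the mouse genome (GENCODE annotation of GRCm38, the same build as mm10). Slc6a18 (73661752 to 73678023) and Slc6a19 (73679745 to 73704865) are neighbours on chromosome 13, both on the minus strand and 1722 bases apart. Slc7a7 (54369442 to 54417780) and Slc7a8 (54722209 to 54781946) lie on the minus strand of chromosome 14. Slc7a9 is on the plus strand of chromosome 7 (35448796 to 35466036), Slc7a13 on the plus strand of chromosome 4 (19818725 to 19842218), Slc3a1 on the plus strand of chromosome 17 (85028376 to 85064236) and Slc3a2 on the minus strand of chromosome 19 (8706882 to 8723369). Slc7a7 overlaps Oxa1l, Slc3a1 overlaps Prepl and Slc6a19 overlaps Slc6a19os, each on the opposite strand. The labels do not state that counting used strand, so whether reads of these overlapping partners were told apart is not known.

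Promoter sequences are shown for the 2 heavy chains, whose levels moved apart after injury, and for Slc7a7, whose pattern in convoluted barcodes was the closest to that of Slc3a2. They run from 250 bases before to 50 after a start annotated by RefSeq (GRCm38.p6), 5′ to 3′ on the strand of the gene, and 6 of the 8 members had one. Capitals mark matches on either strand to 3 motifs that were chosen with these sequences in view: the HNF4 motif CAAAGTCCA, the letters GTTAAT from the HNF1 motif and the ATF4 composite site TGATGNAA. The Slc3a1 window, chr17:85028097-85028396 on the plus strand, holds the HNF4 motif at base 212 and, on the reverse strand, GTTAAT at base 252. The Slc3a2 window, chr19:8713848-8714147 on the minus strand, holds none of the motifs. The first Slc7a7 window, chr14:54417895-54418194 on the minus strand, holds the ATF4 composite site at bases 110 and 250. Of the 11 windows of the 6 members, some of which overlap, 4 hold a match. The full palindromic HNF1 motif, found in 0.00913% of all windows, was searched too and is in none of them. Of all 32851 promoter windows of this length, 0.475% hold the HNF4 motif, 7.1% the letters GTTAAT and 3.97% the ATF4 composite site, so a match describes these letters and is not evidence of a bound factor.
Slc3a1: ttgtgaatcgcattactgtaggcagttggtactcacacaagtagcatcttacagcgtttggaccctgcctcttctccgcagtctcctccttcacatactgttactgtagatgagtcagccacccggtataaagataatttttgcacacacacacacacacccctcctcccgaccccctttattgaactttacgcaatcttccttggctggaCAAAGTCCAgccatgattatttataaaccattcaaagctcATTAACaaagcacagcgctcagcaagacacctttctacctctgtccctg
Slc3a2: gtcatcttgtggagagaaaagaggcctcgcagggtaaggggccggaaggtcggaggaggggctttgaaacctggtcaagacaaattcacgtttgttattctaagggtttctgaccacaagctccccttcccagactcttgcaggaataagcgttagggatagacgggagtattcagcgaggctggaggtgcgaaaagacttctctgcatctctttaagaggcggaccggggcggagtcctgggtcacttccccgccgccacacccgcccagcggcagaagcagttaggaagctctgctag
Slc7a7: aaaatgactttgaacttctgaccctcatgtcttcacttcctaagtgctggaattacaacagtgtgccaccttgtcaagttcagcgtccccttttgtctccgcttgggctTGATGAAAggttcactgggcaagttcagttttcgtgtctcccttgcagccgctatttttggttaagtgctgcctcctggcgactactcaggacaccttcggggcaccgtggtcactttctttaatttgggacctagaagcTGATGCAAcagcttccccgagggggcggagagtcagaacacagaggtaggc

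The libraries held 7091848 to 31632205 unique molecular identifiers (UMIs, each taken as a single captured molecule), and the convoluted sums 941194 to 11884625. The straight sums reached 5314445, but the smallest held 45563 UMIs from 19 barcodes on day 2, 70960 from 28 on day 1 and 179897 from 52 in the first library of day 7. General proximal markers, which took no part in the gate, summed to between 8693 and 75179.7 in convoluted barcodes as per-million UMI levels (CPM, a gene's share of the summed UMIs), with 70464 in the control, 8693 and 15369 on day 7 and 73349 and 66521 on day 14. The 9 injury markers ran the other way, at 126 in the control against 14005 and 16645 on day 7. The 4 macrophage markers summed in convoluted barcodes to 134 and 42.2 on day 7, with all 4 found, against 0.327 in the control, 9.07, 7.18 and 25.9 on days 1, 2 and 4, and 0.841 to 8.23 on days 11 and 14. The 4 erythroid markers, all 4 found in each convoluted sum, went from 6.32 in the control to 796, 18.7 and 119 on days 1, 2 and 4, with 868 and 15.4 for day 7, 2245 and 1033 for day 11 and 104 and 83.7 for day 14. The 3 neutrophil markers stood at 2.40 in the control, 76.4 and 49.3 on days 1 and 2, and 0.265 to 14.9 later. In straight barcodes the macrophage, erythroid and neutrophil sums ranged from 0 to 106, 9.91 to 3348 and 0 to 155. The part of these markers' cells in the members' values was not tested. Mitochondrial UMIs took 21.8% of the convoluted sum in the control and 5.26% and 6.11% on day 7, and the 50 highest genes 40.5% against 18.7% and 19.8%. Levels by library are given below as TMM-scaled CPM (edgeR's trimmed mean of M values, computed within each segment), the scale of the tests, and levels of other classes or of subsets as plain CPM. Against plain totals, TMM scaling lowered the median gene by 0.83 on the log2 scale between the control and day 7 in convoluted barcodes and by 0.91 in straight ones. Plain totals moved the median gene by -0.73 and -0.80 from day 7 to day 11, by 0.12 and 0.16 on day 14 against the control, and by 0.21 between barcodes with and without Havcr1. The 3′ UMI counts carry no gene length term, but differences in capture between genes were not tested, so an order of different genes is approximate. Fewer captured molecules per cell and fewer expressing cells cannot be told apart in a summed level.

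Most members had their highest levels in the proximal classes, with exceptions among the basolateral ones. Over the libraries with at least 10 barcodes of a class, the luminal members Slc6a18, Slc6a19, Slc3a1, Slc7a9 and Slc7a13 had their highest class medians in one of the proximal classes. Slc7a13, the light chain of the straight tubule, had a median of 712 CPM in straight barcodes (range 11.1 to 2642) and 539.7 in convoluted ones (23.7 to 1222), against 19.5 in macrophages and 49.3 in endothelial barcodes, the lowest and the highest medians of the other 10 classes. Slc3a1, its heavy chain, had 193 in straight and 159 in convoluted barcodes, 76.9 in neutrophils (0 to 98.1, 5 libraries) and 10.5 in the thick limb. Slc3a2, the general heavy chain, was found in all classes. Its median was 195 in endothelial barcodes and 147 in macrophages, next to 129 in convoluted and 51.9 in straight ones. Its ranges in endothelial, macrophage and convoluted barcodes overlapped, so the order of these classes is not settled. Slc7a8 had its highest class median in neutrophils, at 76.9 (range 13.2 to 143, 5 libraries). The same 76.9 was the neutrophil median of Slc3a1 and of Slc6a18, and Slc6a19 had 105 there (0 to 147). Neutrophil medians thus rest on very few counts, and the rank of this class is not settled. The part of free RNA in them was not tested. Slc7a8 had 42.1 in convoluted barcodes, 41.9 in intercalated cells, 37.7 in macrophages and 35.3 in principal cells, again with overlapping ranges. In straight barcodes it had 6.05. Slc7a7 stood at 132 in convoluted and 37.0 in straight barcodes, with 49.0 in neutrophils and 41.0 in macrophages.

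Free RNA gives UMIs in droplets of cells that do not express a gene, so shares of barcodes were compared with the thick limb after each barcode was thinned to 1000 UMIs and shallower ones were left out. In the control, 30.8% of thinned convoluted barcodes held Slc7a13 (51.8% unthinned, median depth 2530.0 UMIs), against 5.29% of the thick limb (11.5% unthinned, median depth 3513). Shallower barcodes numbered 87 and 24 there. On day 7 the thinned convoluted shares were 1.64% and 11.9%, against 0% and 0.297% of the thick limb, where the 0 allows up to 1.06%. They were 50.5% and 41.2% on day 14, against 8.43% and 4.95%. The thick limb share of this proximal transcript thus went down and up with the proximal share, at a lower level.

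**Figure D1:**
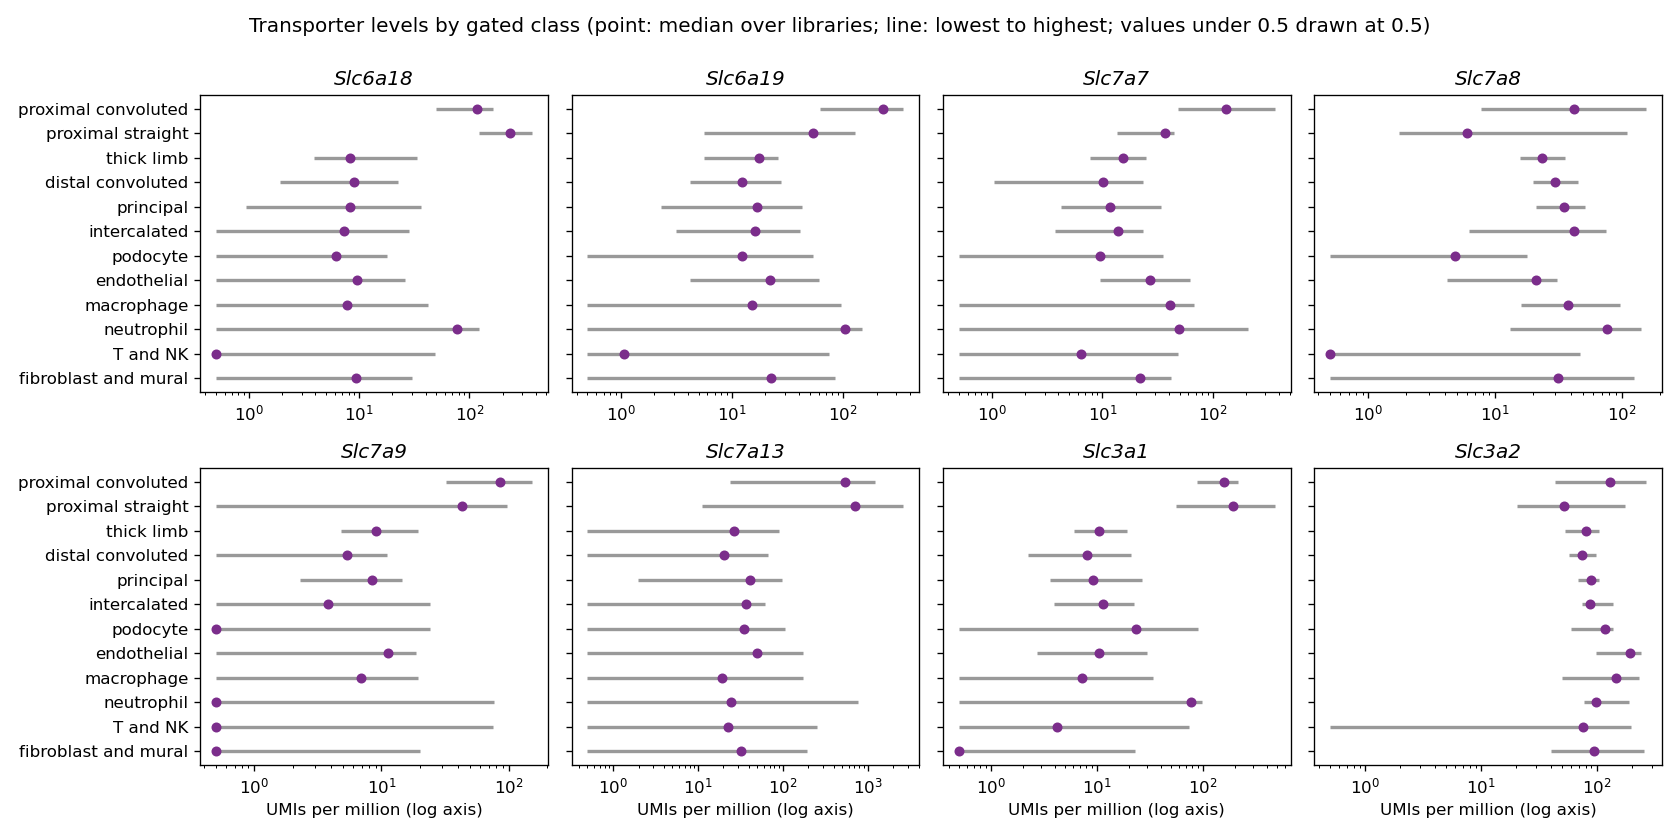
Levels of the 8 members by gated class, in CPM on a log axis. Each point is the median over libraries, each line runs from the lowest to the highest library, and values under 0.5 are drawn at 0.5. Slc7a13 sits at 539.7 and 712 in the proximal classes, and Slc3a2 is found in every class.

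Straight and convoluted barcodes of the same library carried different sets of these transporters. In a fit with the library as a block (edgeR's quasi-likelihood test, Benjamini-Hochberg adjustment over 12870 genes, log2 change ± standard error, 10 libraries of each segment), 7 of 8 members differed at an adjusted p under 0.05, the threshold for a call throughout, while 14.4% of all genes tested did, 5.03% higher and 9.32% lower in straight barcodes. Over all genes the calls were 648 higher and 1199 lower under TMM and 935 and 831 under total scaling. Slc6a18 and Slc7a13 were higher in straight barcodes, and Slc6a19, Slc7a7, Slc7a8, Slc7a9 and Slc3a2 higher in convoluted ones. Slc6a18 had between 122 and 369 CPM in straight barcodes (median 234) and between 50.1 and 164 in convoluted ones (median 118), a log2 change of 0.94 ± 0.10, adjusted p = 2.62e-07, and was higher in straight barcodes of 10 of 10 libraries. Its neighbour Slc6a19 ran the other way, with 5.56 to 127 in straight barcodes (median 53.7) and 62.2 to 348 in convoluted ones (median 227), a log2 change of -2.30 ± 0.14, adjusted p = 3.41e-11, lower in 10 of 10 libraries. The pair of luminal carriers of neutral amino acids was therefore ordered in opposite directions in every library. On day 1, day 2 and in the first library of day 7, however, the straight counts of Slc6a19 were 9, 3 and 1. Counts of all members in these straight sums were at most 22, so the orders between segments are less certain there.

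Among the light chains, Slc7a13 was higher in straight barcodes of 9 of 10 libraries (log2 change 0.75 ± 0.14, adjusted p = 4.58e-04), the exception being the first library of day 7, where it had 2 counts in the straight sum (scaled level with exact Poisson 95% interval 0.971 to 29.0). Slc7a9, the other light chain of Slc3a1, was lower in straight barcodes of 10 of 10 libraries (-0.94 ± 0.12, adjusted p = 2.41e-06). The basolateral light chains showed the same order in 10 of 10 libraries, Slc7a7 at -1.97 ± 0.11, adjusted p = 6.30e-12 and Slc7a8 at -2.07 ± 0.18, adjusted p = 2.37e-08. So did their heavy chain Slc3a2, at -1.22 ± 0.11, adjusted p = 2.14e-08. The luminal heavy chain Slc3a1 was higher in straight barcodes of 7 of 10 libraries without passing the threshold (0.41 ± 0.14, adjusted p = 0.0574). It passed under total scaling, at 0.51, and when day 1, day 2, day 4, the first library of day 7 or the second library of day 7 was left out, and it missed it by DESeq2, at 0.33. The order of Slc6a18, Slc7a13 and Slc3a1 rests on the gate: where barcodes were admitted with no condition on the markers of other classes, their log2 changes were -0.30, -0.38 and -0.88, none of them called. It also differs within the convoluted class. Convoluted barcodes with Slc22a6 and neither Slc5a2 nor Slc5a12 had medians of 1022 CPM for Slc7a13 and 208 for Slc3a1. These lay above the straight medians of 712 and 193, while Slc6a18, at 159, lay below its 234.

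**Figure D2:**
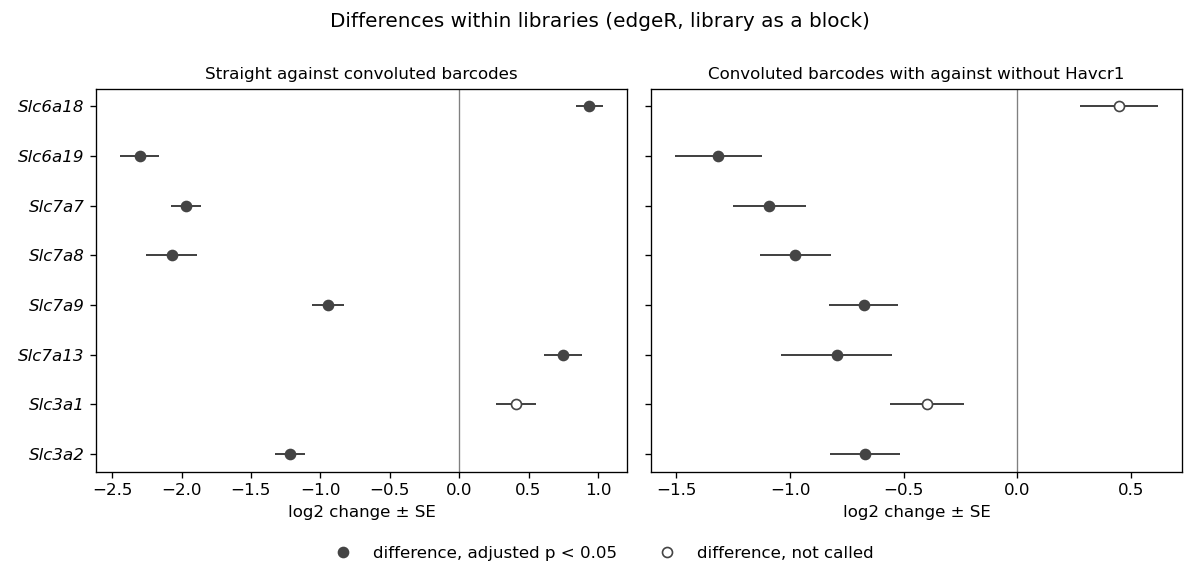
Log2 change ± standard error of each member within libraries (edgeR, library as a block), on the left for straight against convoluted barcodes and on the right for convoluted barcodes with against without Havcr1. Filled points passed the adjusted p threshold of 0.05. Slc6a18 lies on the positive side of both panels and Slc6a19 on the negative side of both.

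In convoluted barcodes, Slc6a18, Slc6a19, Slc7a13 and Slc3a1 fell on day 7 and Slc7a8 and Slc3a2 rose, although under scaling to total UMIs alone only Slc7a13 was still called lower and Slc6a18 changed sign. The 4 that fell all rose from day 7 to day 11 under TMM, and of these Slc6a19 and Slc7a13 did so under total scaling too. Days 1, 2 and 4 have 1 library each and were not compared with other days, but they entered the fits and the comparisons between segments and by Havcr1. The control is a single library too, and is assumed to vary like the replicated days. On day 7 against the control, 6 of 8 members changed in convoluted barcodes, where 35.6% of 14247 genes did. Of these 2 were higher and 4 lower, beside 17.5% and 18.1% of all genes. In straight barcodes 5 of 8 changed, where 36.4% of 11799 genes did, 1 higher and 4 lower beside 18.7% and 17.7%. By DESeq2 only Slc6a19 was called there, and a fit of only the 2 groups called 3, Slc6a19, Slc7a13 and Slc3a1. The 36.4% is not the background of these fits, since all-gene calls ranged from 1570 to 6105 over the alternatives, beside 4294 in the main fit. With scaling to total UMIs alone, 4 members were higher and 1 lower in convoluted barcodes, and 2 higher and 2 lower in straight ones. Over all genes in convoluted barcodes, the calls on day 7 were 2492 higher and 2582 lower under TMM and 6154 higher and 855 lower under total scaling. In straight barcodes they were 2208 and 2086 under TMM and 5289 and 816 under total scaling. From day 7 to day 11, 5 members changed in convoluted barcodes, where 37.1% of genes did, 4 higher and 1 lower beside 18.5% and 18.6%. Under total scaling 2 were higher (Slc6a19 and Slc7a13) and 3 lower (Slc7a7, Slc7a8 and Slc3a2), where 53.3% of genes changed. The 5 that changed in straight barcodes were all higher, where 34.2% of genes changed, 18.2% higher and 16% lower. Over all genes the calls from day 7 to day 11 went from 2631 higher and 2655 lower to 1145 and 6444 under total scaling in convoluted barcodes, and from 2148 and 1893 to 991 and 4976 in straight ones. On day 14 against the control, 4 members were higher in convoluted barcodes, Slc7a7, Slc7a8, Slc7a9 and Slc3a2, where 6.72% of genes changed, 2.96% higher and 3.76% lower. In straight barcodes 1 of 8 was, Slc7a9, a share near the 10.1% of all genes that changed, 5.19% higher and 4.95% lower. Slc6a18, Slc6a19, Slc7a13 and Slc3a1 were not called on day 14 in either segment under TMM with all libraries, so a level above the control is not settled for them. The day 14 calls over all genes were 422 higher and 536 lower under TMM and 625 and 393 under total scaling in convoluted barcodes, and 612 higher and 584 lower under TMM and 992 and 385 under total scaling in straight ones.

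**Figure D3:**
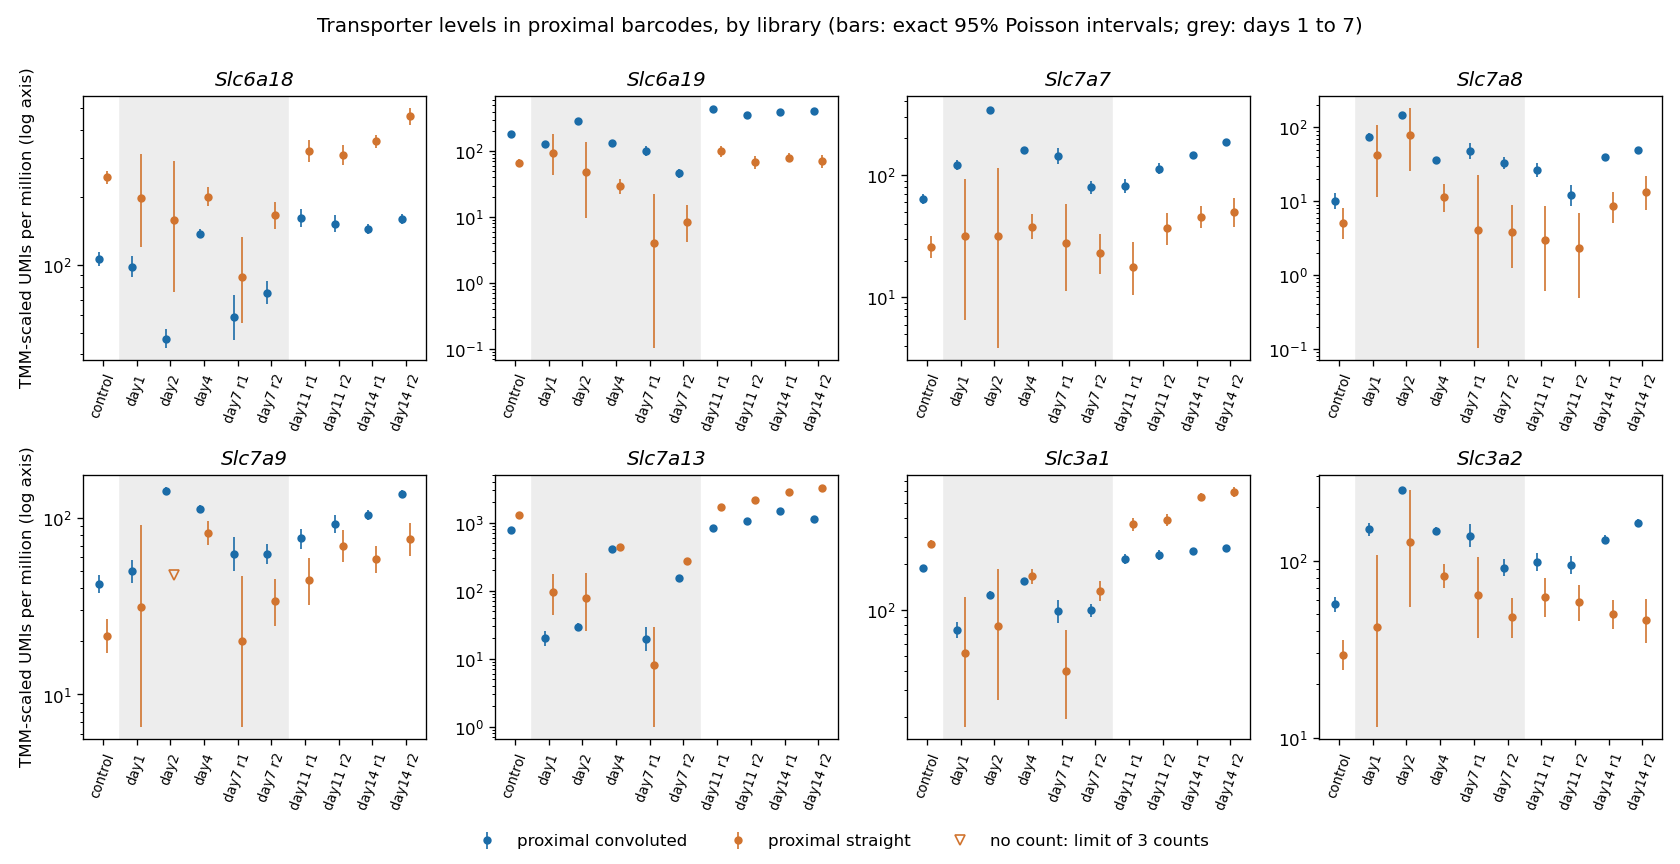
TMM-scaled CPM of each member by library, on a log axis, in convoluted and straight barcodes from the control to day 14. Bars are exact Poisson 95% intervals for counting error only, grey marks days 1 to 7, and the open triangle is the limit of 3 counts where none was found. Slc7a13 is low on days 1, 2 and 7 in both segments.

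Slc6a19, the main luminal carrier of neutral amino acids, had levels in convoluted barcodes, in scaled CPM, of 180.3 in the control, then 129, 284 and 132 on days 1, 2 and 4, with 99.7 and 46.5 for day 7, 433 and 356 for day 11 and 399.8 and 406 for day 14. The 2 libraries of day 7 were the lowest of the 10, and the 4 of days 11 and 14 the highest. In plain CPM the control, at 138, lay just below the first library of day 7, at 139, and the second library of day 11, at 296, below day 2, at 303. Its log2 change was -1.36 ± 0.33 (adjusted p = 0.00655) on day 7 against the control and 2.49 ± 0.29 (adjusted p = 3.13e-05) from day 7 to day 11. Under total scaling the day 7 value was -0.51 (not called), and the rise to day 11 was 1.74 (called). The day 7 change was -1.96 without the first library of day 7 and -0.85 without the second, and the rise to day 11 was 3.08 without the first library of day 7 and 1.98 without the second. In straight barcodes Slc6a19 was low throughout, at 66.6 in the control, then 94.6, 47.5 and 29.2 on days 1, 2 and 4, with 4.01 and 8.48 for day 7, 99.8 and 67.7 for day 11 and 80.0 and 71.1 for day 14, with counts of 1 and 11 on day 7 (exact Poisson 95% intervals 0.102 to 22.3 and 4.23 to 15.2). Both day 7 libraries lay below all others. The straight log2 changes were -3.10 ± 0.42 (adjusted p = 5.93e-06) on day 7 and 3.42 ± 0.39 (adjusted p = 9.42e-07) from day 7 to day 11, and total scaling kept both calls, at -2.20 (called) and 2.63 (called). The first was -3.03 without the first library of day 7 and -4.12 without the second, and the second 3.27 without the first library of day 7 and 4.36 without the second.

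Slc6a18, the carrier encoded next to it, moved less. Its convoluted levels were 107 in the control, then 98.5, 47.0 and 138 on days 1, 2 and 4, with 58.6 and 75.3 for day 7, 162 and 153 for day 11 and 145 and 160.0 for day 14. Days 1, 2 and 7 were below the control, and days 4, 11 and 14 above it. In plain CPM only day 2, at 50.1, was below the control, at 81.5, with 117 on day 1 and 81.8 and 101 on day 7. Its log2 change was -0.65 ± 0.23 (adjusted p = 0.0441) on day 7 and 1.22 ± 0.20 (adjusted p = 4.04e-04) from day 7 to day 11. The day 7 call did not hold in other settings: the change was 0.18 (not called) under total scaling, and it missed the threshold by DESeq2 (adjusted p = 0.0916), in a fit of only the 2 groups (adjusted p = 0.164), with no condition on other classes, without the top 1% of barcodes by UMIs, and when the first library of day 7, the first library of day 11, the second library of day 11, the first library of day 14 or the second library of day 14 was left out. The later rise was 0.48 (not called) under total scaling. In straight barcodes its levels were 246 in the control, then 199.6, 158 and 202 on days 1, 2 and 4, with 88.2 and 167 for day 7, 323 and 309.6 for day 11 and 356 and 460.2 for day 14. The first library of day 7 was the lowest and the 4 libraries of days 11 and 14 the highest, although in plain CPM day 1, at 268, lay above both libraries of day 11, at 246 and 230.1, and the control, at 172, was lower than every library but the first of day 7. The straight log2 changes were -0.84 ± 0.31 (adjusted p = 0.0410) on day 7, with 0.09 (not called) under total scaling, and 1.197 ± 0.27 (adjusted p = 0.00168) from day 7 to day 11, with 0.38 (not called). The straight day 7 call was lost by DESeq2 (adjusted p = 0.326), with DESeq2 size factors, at a gate minimum of 3 UMIs and in a fit of only the 2 groups. Leaving out the first library of day 7, the first library of day 11, the second library of day 11, the first library of day 14 or the second library of day 14 ended it too. That change was -0.63 without the first library of day 7 and -1.58 without the second, and the straight rise to day 11 was 0.92 without the first library of day 7 and 1.87 without the second.

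Slc7a13 had the widest range of the members. In convoluted barcodes it stood at 780.0 in the control, then 19.99, 29.7 and 407 on days 1, 2 and 4, with 19.8 and 155 for day 7, 835 and 1071 for day 11 and 1487 and 1134 for day 14. Days 1, 2 and 7 lay far below the control, day 4 between, and days 11 and 14 above it. The day 14 change against the control was not called in either segment under TMM. The ratio between the 2 libraries of day 7 was the widest of any replicated day. The log2 change was -3.06 ± 0.60 (adjusted p = 0.00180) on day 7, and 3.35 ± 0.55 (adjusted p = 4.46e-04) from day 7 to day 11, and both calls held under total scaling, at -2.24 (called) and 2.63 (called). The day 7 change was -2.33 without the first library of day 7 and -5.30 without the second. In straight barcodes its levels were 1295 in the control, then 94.6, 79.2 and 442 on days 1, 2 and 4, with 8.02 and 273 for day 7, 1727 and 2157 for day 11 and 2864 and 3291 for day 14, again with the first library of day 7 the lowest and day 14 the highest. The straight log2 changes were -2.93 ± 0.57 (adjusted p = 3.69e-04) on day 7 and 3.52 ± 0.53 (adjusted p = 2.30e-05) from day 7 to day 11, -2.01 (called) and 2.71 (called) under total scaling. By DESeq2 the straight day 7 change of -3.10 missed the threshold (adjusted p = 0.262). Against the control, the straight day 7 change was -2.31 without the first library of day 7 and -7.41 without the second, and the change to day 11 was 2.82 without the first library of day 7 and 7.93 without the second. The corresponding convoluted change to day 11 was 2.62 without the first library of day 7 and 5.58 without the second.

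Slc3a1, the luminal heavy chain, ranged less widely. Its convoluted levels were 189 in the control, then 74.4, 126 and 156 on days 1, 2 and 4, with 98.9 and 99.6 for day 7, 217 and 230.3 for day 11 and 246 and 256 for day 14. The 2 libraries of day 7 were nearly equal, and only day 1 was lower, while in plain CPM day 2, at 135, lay between them, at 138 and 133. The log2 change was -0.93 ± 0.21 (adjusted p = 0.00417) on day 7 and 1.17 ± 0.18 (adjusted p = 2.46e-04) from day 7 to day 11, and neither passed under total scaling, at -0.09 (not called) and 0.43 (not called). Its straight levels were 271 in the control, then 52.5, 79.2 and 167 on days 1, 2 and 4, with 40.1 and 134 for day 7, 365 and 391 for day 11 and 549.9 and 596 for day 14. Days 1, 2, 4 and 7 were all below the control and days 11 and 14 all above it, except that in plain CPM day 4, at 197, was above the control, at 189. The straight log2 change was -1.41 ± 0.35 (adjusted p = 0.00369) on day 7, with -0.49 (not called) under total scaling, and 1.89 ± 0.32 (adjusted p = 7.50e-05) from day 7 to day 11, which total scaling kept at 1.08 (called). By DESeq2 the straight day 7 change of -1.41 fell short of the threshold (adjusted p = 0.0542). The straight day 7 change was -1.08 without the first library of day 7 and -2.85 without the second, and the change to day 11 was 1.48 without the first library of day 7 and 3.26 without the second.

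Slc7a9, the light chain of cystine uptake, was not called lower on day 7 in either segment. Its convoluted levels were 42.4 in the control, then 50.3, 143 and 113 on days 1, 2 and 4, with 63.1 and 63.0 for day 7, 77.0 and 93.3 for day 11 and 105 and 137 for day 14. The control was the lowest library and day 2 the highest. The day 7 log2 change was 0.57 ± 0.26 (adjusted p = 0.104), short of the threshold under TMM and past it under total scaling, at 1.41 (called). On day 14 it was higher than in the control, at 1.52 ± 0.26 (adjusted p = 0.00647). In straight barcodes the levels were 21.6 in the control, then 31.5, 0 and 83.0 on days 1, 2 and 4, with 20.1 and 33.9 for day 7, 44.5 and 70.01 for day 11 and 58.5 and 76.5 for day 14. The 0 on day 2 allows up to 47.5, the level that 3 counts would give in that small sum, and covers counting error only. The straight day 14 change was 1.62 ± 0.33 (adjusted p = 0.00379), not called by DESeq2 (adjusted p = 0.288), and the rise from day 7 to day 11 was 0.91 ± 0.33 (adjusted p = 0.0355), which missed the threshold under total scaling, at 0.11 (not called), by DESeq2 (adjusted p = 0.403), and without the control, the first library of day 7, the second library of day 7 or the second library of day 11. It also missed it with DESeq2 size factors, at a gate minimum of 3 UMIs, at a mitochondrial share of at most 25%, in a fit of only the 2 groups and without the top 1% of barcodes by UMIs. That rise was 0.76 without the first library of day 7 and 1.55 without the second, and its lowest value with any library left out was 0.54. The day 7 value in straight barcodes was 0.51 ± 0.38 (adjusted p = 0.321) under TMM and 1.41 (called) under total scaling.

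Slc3a2, the basolateral heavy chain, lay above the control in all 9 injured libraries of both segments. Its convoluted levels were 56.6 in the control, then 150.0, 250.2 and 147 on days 1, 2 and 4, with 138 and 91.3 for day 7, 98.8 and 94.3 for day 11 and 131 and 163 for day 14. The control was the lowest of the 10 libraries and day 2 the highest. The log2 change was 0.998 ± 0.28 (adjusted p = 0.0155) on day 7 and 1.38 ± 0.28 (adjusted p = 0.0153) on day 14, both against the control, and -0.23 ± 0.23 (adjusted p = 0.457) from day 7 to day 11. Total scaling kept the calls on days 7 and 14, at 1.84 (called) and 1.497 (called), and added a fall from day 7 to day 11, at -0.98 (called). The day 7 change was 0.69 without the first library of day 7 and 1.29 without the second, and the day 14 call was lost without the second library of day 14. In straight barcodes the levels were 29.4 in the control, then 42.0, 127 and 81.9 on days 1, 2 and 4, with 64.2 and 47.8 for day 7, 62.3 and 58.3 for day 11 and 50.03 and 45.9 for day 14. The control was again the lowest, and days 11 and 14 lay between it and the highest libraries. The straight day 7 change was 0.83 ± 0.31 (adjusted p = 0.0440), and 1.74 (called) under total scaling. It was not called by DESeq2 (adjusted p = 0.324), in a fit of only the 2 groups (adjusted p = 0.157), at a gate minimum of 3 UMIs, at a mitochondrial share of at most 25%, with no condition on other classes, with no filter on low counts, without Slc22a7 in the gate or without the top 1% of barcodes by UMIs. It missed the threshold when day 1, day 4, the first library of day 7, the second library of day 7, the first library of day 11, the second library of day 11, the first library of day 14 or the second library of day 14 was left out.

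Slc7a7, the exit carrier of cationic amino acids, ranged in convoluted barcodes over 63.6 in the control, then 121, 342 and 159 on days 1, 2 and 4, with 143 and 79.0 for day 7, 81.6 and 113 for day 11 and 146 and 185 for day 14. Again the control was lowest and day 2 highest. The day 7 change of 0.77 ± 0.34 (adjusted p = 0.0960) missed the threshold under TMM and passed it under total scaling, at 1.62 (called). It passed in a fit of only the 2 groups as well (adjusted p = 0.0476). With each library left out in turn, the day 7 change ranged from 0.31 to 1.17. From day 7 to day 11 the change was -0.16 ± 0.27 (adjusted p = 0.683) under TMM and -0.90 (called) under total scaling. The day 14 change was 1.38 ± 0.34 (adjusted p = 0.0320) and was lost without the second library of day 14. In straight barcodes its levels were 25.9 in the control, then 31.5, 31.7 and 37.9 on days 1, 2 and 4, with 28.1 and 23.1 for day 7, 17.8 and 36.6 for day 11 and 45.6 and 49.5 for day 14, and no day comparison passed the threshold under TMM. On day 14 it passed under total scaling, at 1.04 (called).

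Slc7a8, the exchanger of neutral amino acids, had the widest relative range of the basolateral members. Its convoluted levels were 10.1 in the control, then 74.7, 147 and 36.1 on days 1, 2 and 4, with 47.9 and 33.1 for day 7, 26.8 and 12.3 for day 11 and 40.0 and 49.4 for day 14. The control was the lowest and days 1 and 2 the highest, and the 2 libraries of day 11 lay below those of days 7 and 14. The log2 change was 1.95 ± 0.41 (adjusted p = 0.00267) on day 7, -1.01 ± 0.33 (adjusted p = 0.0283) from day 7 to day 11 and 2.14 ± 0.39 (adjusted p = 0.00926) on day 14 against the control. All 3 calls held under total scaling, at 2.79 (called), -1.76 (called) and 2.26 (called). The call from day 7 to day 11 was lost without Slc22a6 in the gate, without the top 1% of barcodes by UMIs, and without the first library of day 7, the second library of day 7 or the second library of day 11, and the change was -1.68 without the first library of day 11 and -0.55 without the second. In straight barcodes the levels were 5.12 in the control, then 42.0, 79.2 and 11.3 on days 1, 2 and 4, with 4.01 and 3.85 for day 7, 2.96 and 2.33 for day 11 and 8.49 and 13.5 for day 14, on counts of 1 and 5 on day 7, and no day comparison passed the threshold under TMM.

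**Figure D4:**
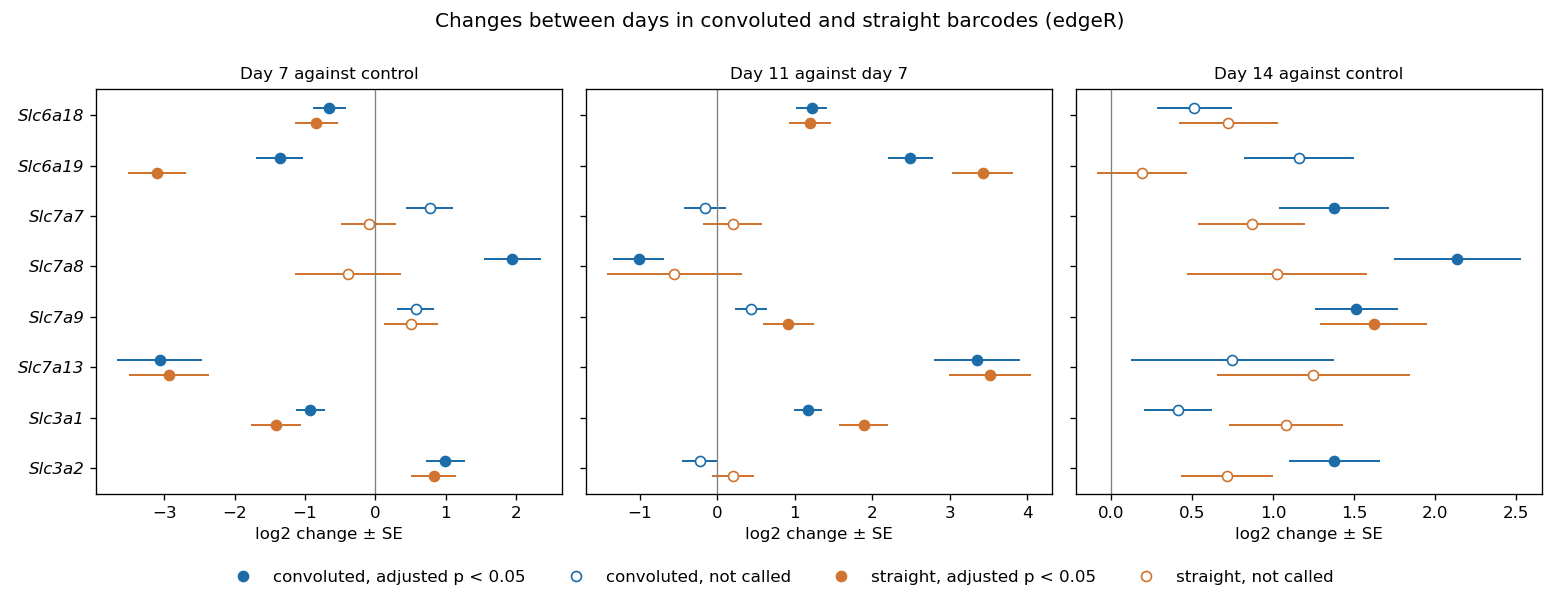
Log2 change ± standard error of each member between days under TMM scaling, in convoluted and straight barcodes. Filled points passed the adjusted p threshold of 0.05. Slc7a13 is the farthest below 0 on day 7 in convoluted barcodes and Slc6a19 in straight ones, and Slc6a18 changes sign on day 7 under total scaling.

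The marker genes by which convoluted barcodes were admitted moved with the day. Slc5a2 and Slc5a12 mark its early part and Slc22a6 is found further along. Barcodes with Slc5a2 or Slc5a12 and no Slc22a6 made up 18.4% of the convoluted class in the control, 63.9% and 43.0% on day 7 and 16.0% and 17.2% on day 14. Those with Slc22a6 and neither of the others made up 45.1%, then 4.01% and 9.78%, then 41.0% and 36.0%. The members differed between these subsets. In the Slc5a2 or Slc5a12 subset, Slc7a13 and Slc6a18 were lower in 10 of 10 libraries, with median ratios of 0.0571 and 0.316, and Slc3a1 was lower in 9. Slc7a8 and Slc3a2 were higher there in 10 of 10, with median ratios of 6.24 and 2.75, Slc6a19 and Slc7a7 in 9 and Slc7a9 in 8. These are the directions in which most of the members moved on day 7, Slc6a19 excepted. The subsets are split by detection of Slc22a6, itself a proximal transcript, so fewer cells of the later part and less Slc22a6 per cell cannot be told apart. The part of this split in the day 7 values was not tested.

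Within the Slc22a6 subset, the level of Slc7a13 in CPM was 792 in the control, 531 and 1398 on day 7 and 1640.2 and 1416 on day 14, so one library of day 7, with 15 barcodes, was below the control and the other above it. Within the Slc5a2 or Slc5a12 subset it had 97.6 in the control, 1.83 and 9.46 on day 7 and 152 and 136 on day 14, with both day 7 libraries below the control. Slc6a19 had 242 in the control, 156 and 49.98 on day 7 and 616 and 626 on day 14 in the latter subset, again with both day 7 libraries lower. Slc3a2 had 116 in the control, 242 and 151 on day 7 and 329.6 and 337 on day 14 there, a comparison with no test. All these subset levels are plain CPM. Against TMM, plain totals raised the median convoluted gene by 0.83 on the log2 scale on day 7 against the control. TMM-scaled levels were not computed for these subsets, so their orders of day 7 against the control are not settled. When Slc22a6 was dropped from the gate, an alternative chosen after the data were seen, 3 members were called on day 7 in convoluted barcodes. They were Slc7a13 at -3.24, Slc6a19 at -1.77 and Slc7a8 at 1.26. Slc6a18 stood at 0.09, Slc3a1 at -0.59 and Slc3a2 at 0.73, none past the threshold. All-gene calls of this comparison ranged from 3361 to 7009 over the alternatives, beside 5074 in the main fit, so the share of the main fit is not the background here. In the straight class, Atp11a gave 30.2% of the marker UMIs in the control and 55.9%, 61.4% and 65.8% on days 1, 2 and 4. On day 7 it gave 86.9% and 62.5%. Of the 7 straight markers, 4 were detected on day 1, 3 on day 2 and 5 in the first library of day 7. The part of this in the straight values was not tested.

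Ratios within a library need no scaling between libraries. Of the counts of the light chains Slc7a13 and Slc7a9, which share the heavy chain Slc3a1, Slc7a13 made up 94.8% in the control, then 28.5%, 17.2% and 78.3% on days 1, 2 and 4, with 23.9% and 71.1% for day 7, 91.6% and 92.0% for day 11 and 93.4% and 89.2% for day 14 in convoluted barcodes. Slc7a9 thus gave the larger part on days 1 and 2 and in one library of day 7 there, and Slc7a13 in the other 7 libraries. In straight barcodes Slc7a13 was the larger part in all but the first library of day 7, with 96.9% to 98.4% in the control and on days 11 and 14, 84.2% on day 4 and 28.6% and 88.9% for day 7. Its straight counts against those of Slc7a9 were only 9 against 3 (day 1), 5 against 0 (day 2) and 2 against 5 (the first library of day 7). Of the counts of the heavy chains, Slc3a1 made up 76.9% in the control, then 33.2%, 33.6% and 51.4% on days 1, 2 and 4, with 41.7% and 52.2% for day 7, 68.7% and 71.0% for day 11 and 65.2% and 61.0% for day 14 in convoluted barcodes. The control had the highest share of Slc3a1, days 1 and 2 the lowest, and the libraries of days 11 and 14 lay between. In straight barcodes Slc3a1 made up 90.2% in the control, then 55.6%, 38.5% and 67.1% on days 1, 2 and 4, with 38.5% and 73.7% for day 7, 85.4% and 87.0% for day 11 and 91.7% and 92.8% for day 14, with days 11 and 14 on both sides of the control.

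The luminal pair Slc6a18 and Slc6a19 behaved otherwise. Slc6a18 made up 37.2% in the control, then 43.2%, 14.2% and 51.1% on days 1, 2 and 4, with 37.0% and 61.8% for day 7, 27.2% and 30.1% for day 11 and 26.5% and 28.2% for day 14 in convoluted barcodes, where the 4 libraries of days 11 and 14 were below the control and the 2 of day 7 spanned a wide range. In straight barcodes it made up 78.7% in the control, then 67.9%, 76.9% and 87.4% on days 1, 2 and 4, with 95.7% and 95.2% for day 7, 76.4% and 82.1% for day 11 and 81.6% and 86.6% for day 14. Both libraries of day 7 were the highest there, and 3 of the 4 libraries of days 11 and 14 lay above the control. The basolateral light chains kept Slc7a7 as the larger part in all 10 convoluted sums, at 86.3% in the control, then 61.9%, 69.98% and 81.5% on days 1, 2 and 4, with 74.9% and 70.5% for day 7, 75.3% and 90.2% for day 11 and 78.5% and 78.9% for day 14. In straight barcodes it was the larger part in 8 of 10, with 42.9% on day 1 and 28.6% on day 2, on 3 counts beside 4 and 2 beside 5. These shares rest on the same libraries as the levels and were not tested.

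**Figure D5:**
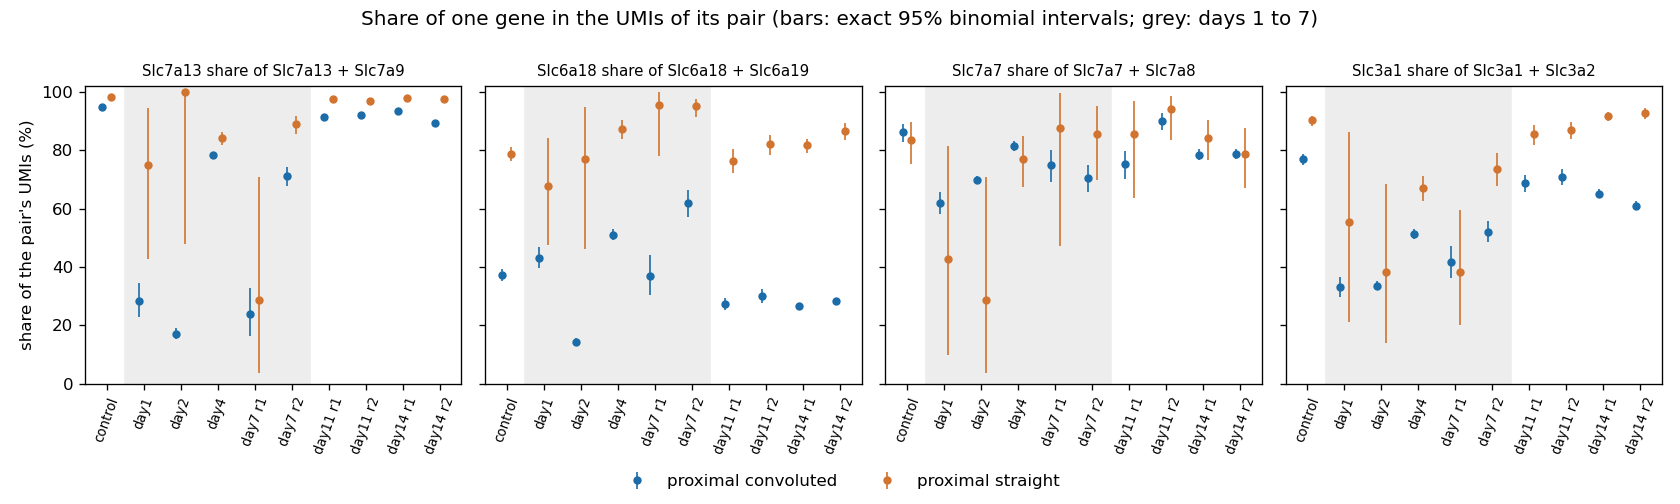
Share of the first gene of each pair among the UMIs of both, in percent, by library, in convoluted and straight barcodes. Bars are exact binomial 95% intervals for counting error only, and grey marks days 1 to 7. In convoluted barcodes Slc3a1 gives 76.9% of the heavy chain UMIs in the control and 33.2% on day 1.

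Havcr1 (Kim1) is the classical gene switched on in injured proximal cells. It was found in 0.997% of convoluted barcodes of the control, in 70%, 10.3% and 49.2% on days 1, 2 and 4, in 62.6% and 50.7% on day 7, and in 0.546% to 1.09% on days 11 and 14. Barcodes with Havcr1 numbered only 13 and 10 in the libraries of day 11 and 39 and 40 in those of day 14. The smallest sum of the comparison held 32380 UMIs, so the order within such libraries rests on few counts. Barcodes with and without Havcr1 were compared within each of the 9 injured libraries. Of the 8 members, 6 were lower in those with Havcr1, where 20.3% of 12007 genes differed, 7.63% higher and 12.7% lower. Under total scaling 5 were lower and 1, Slc6a18, higher, and over all genes the calls were 916 higher and 1521 lower under TMM and 2026 and 753 under total scaling. Slc6a19 had a median of 211 CPM with Havcr1 (range 19.0 to 272) and 297 without it (193 to 349.9), lower in 9 of 9 libraries (log2 change -1.31 ± 0.19, adjusted p = 2.61e-07). Slc7a7 had 107 with and 184 without, also lower in 9 of 9 (-1.09 ± 0.16, adjusted p = 3.56e-07). Slc7a8 was lower in 8 of 9 (-0.98 ± 0.16, adjusted p = 2.67e-06), and Slc7a9 (-0.68 ± 0.15, adjusted p = 5.31e-04) and Slc3a2 (-0.67 ± 0.15, adjusted p = 7.81e-04) each in 7.

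Slc7a13 was called lower (-0.80 ± 0.24, adjusted p = 0.0131) although the plain ratio was above 1 in 6 of 9 libraries. The call was lost under total scaling, at -0.47, by DESeq2, at -0.38, with DESeq2 size factors, at a gate minimum of 3 UMIs, without Slc22a6 in the gate, with no condition on other classes, and without day 4, the second library of day 7, the first library of day 11 or the second library of day 11. Slc6a18 was the exception in direction, higher with Havcr1 in 8 of 9 libraries, at a median of 141 against 118. Its log2 change missed the threshold under TMM (0.45 ± 0.17, adjusted p = 0.0530) and passed it under total scaling, at 0.72 (called), as it did without the second library of day 7, the first library of day 11, the second library of day 11, the first library of day 14 or the second library of day 14. Slc3a1 was lower in 6 of 9 libraries and not called (-0.40 ± 0.16, adjusted p = 0.0763). Barcodes with Havcr1 were deeper, with median depths of 2864 against 1555 UMIs on day 1 and 7037 against 2505 on day 2. The part of depth in these values was not tested. Barcodes with at least 2 Havcr1 UMIs that met no class gate, summed in 5 libraries, had median levels of 164 for Slc6a18, 76.4 for Slc3a1, 98.2 for Slc3a2, 24.3 for Slc6a19 and 6.72 for Slc7a13.

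The difference between days 7 and 11 was compared between segments as day 7 less day 11 in straight barcodes, less the same in convoluted ones, so a value below 0 is a larger rise (or smaller fall) to day 11 in straight barcodes. No member was called in this comparison, where 2.4% of 14005 genes were, 0.921% above 0 and 1.48% below. In simulated sums this test recovered 5% of 2-fold and 60% of 4-fold changes, so missing calls do not show equal changes in the segments. Over all genes the calls were 129 above 0 and 207 below under TMM and 167 and 168 under total scaling. By edgeR's quasi-likelihood test 1 of 8 had an unadjusted p under 0.05. DESeq2 gave 0 calls of members, where it called 29 of all genes, and 1 such unadjusted p. The smallest adjusted p was that of Slc3a1, 0.0690, at -0.63 ± 0.20. Without the second library of day 7 it was -2.06 and called. With no condition on the markers of other classes, 6 members were called below 0, so this count rests on that condition. The 2.4% of all genes is not the background of that fit, since all-gene calls ranged from 29 to 1297 over the alternatives, beside 336 in the main fit.

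Other amino acid and peptide transporters, accessory proteins included, also moved in both directions. Of 21 such genes, 17 were tested in convoluted barcodes, and on day 7 against the control 7 were higher and 5 lower, or 8 and 1 under total scaling. That is 70.6% of those tested beside 35.6% of all genes under TMM, while under total scaling 49.2% of all genes were called, so the 8 and 1 of 17 are near the background. The highest changes were those of Slc7a1 (5.01 ± 0.53), a carrier of cationic amino acids, and Slc7a12 (2.22 ± 0.69), next to Slc7a6, which went from 1 count in the control to 4 and 10 on day 7. The lowest were Slc6a20b (-2.23 ± 0.23), Slc1a4 (-1.83 ± 0.48) and Slc1a1 (-1.43 ± 0.25), the last a glutamate carrier, of which only Slc6a20b was called under total scaling. From day 7 to day 11, 7 were higher and 5 lower, or 3 and 6 under total scaling, where 37.1% and 53.3% of all genes were called. On day 14 Slc15a2 (2.39 ± 0.26), a peptide carrier, and Slc6a13 (2.30 ± 0.28) were above the control, 11.8% of those tested beside 6.72% of all genes. In straight barcodes 4 of 16 were higher and 6 lower on day 7, or 7 and 4 under total scaling, where 36.4% and 51.7% of all genes were called. Between the segments 6 were higher in straight barcodes, among them Slc38a3 (3.43 ± 0.24), a glutamine carrier, and 4 lower, among them Tmem27 (-0.82 ± 0.12), the partner of the Slc6 members, 62.5% of those tested beside 14.4% of all genes. The rise from day 7 to day 11 was larger in straight than in convoluted barcodes for, among others, Slc6a20b, at 3.58 against 2.23, and Tmem27, at 2.04 against 1.39. The test of that difference, with day 7 less day 11, gave -1.33 ± 0.40 and -0.63 ± 0.17, and Slc6a20b was not called under total scaling.

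ATF4 is a transcription factor switched on when amino acids run short, and Slc3a2 is among its known targets. Of 17 other genes of that response, 9 were higher and 2 lower on day 7 in convoluted barcodes, which is 64.7% of the list beside 35.6% of all genes, at a median log2 change of 2.28 against 0.06 over all genes. Total scaling gave 11 higher and 1 lower, where 49.2% of all genes were called. Asns (3.33 ± 0.57), which makes asparagine, and Mthfd2 (3.15 ± 0.55), a mitochondrial folate enzyme, were among those higher, and Cth (-2.85 ± 0.52), which makes cysteine, was lower. Atf4 itself was called lower under TMM (-0.95 ± 0.22) and not under total scaling (-0.12). From day 7 to day 11, 1 was higher and 6 lower, or 1 and 10 under total scaling. That is 41.2% of the list beside 37.1% of all genes under TMM, a share near the background, and under total scaling 53.3% of all genes were called. On day 14 against the control, 0 of the 17 were called in convoluted barcodes under either scaling, beside 6.72% of all genes under TMM and 7.15% under total scaling. Their median log2 change was -0.14 under TMM. In simulated sums this comparison recovered 25% of 2-fold changes, so missing calls are weak evidence of no change. The part of ATF4 in the level of Slc3a2 was not tested. Straight barcodes gave 7 higher and 2 lower of 13 on day 7, or 9 and 1 under total scaling, where 36.4% and 51.7% of all genes were called. On day 14 they gave 1 higher and 1 lower of 13, 15.4% beside 10.1% of all genes under TMM.

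The genes most like each member over the 10 libraries were taken among 4407 genes of convoluted and 4757 of straight barcodes, by Pearson's r of log2 levels. These libraries share their scaling and the mixture of cells, so the values are descriptions. Slc3a2 was most like Slc7a7 (r = 0.95, rho = 0.95), D630023F18Rik (r = 0.93, rho = 0.95) and Slc7a8 (r = 0.91, rho = 0.85), so its nearest genes in convoluted barcodes included both of its light chains. In straight barcodes its r was 0.0419 with Slc7a7 and 0.40 with Slc7a8. Among the 3 genes most like Slc3a1 were Adk (r = 0.99, rho = 1) and Cndp2 (r = 0.99, rho = 0.98), and its r was 0.92 with its light chain Slc7a13 and 0.49 with Slc7a9. In straight barcodes these values were 0.97 and 0.501. Slc7a9 was most like Ctsa (r = 0.96, rho = 0.98), and Slc6a19 like Hsd3b2 (r = 0.98, rho = 0.94). Slc7a7 had Tpp1 (r = 0.95, rho = 0.95) and Slc7a8 D630023F18Rik (r = 0.95, rho = 0.94) as the nearest. In straight barcodes Slc7a13 was most like Ugt3a1 (r = 0.99, rho = 0.98), Adhfe1 (r = 0.99, rho = 0.99) and Cyp2j11 (r = 0.99, rho = 0.96), and Slc6a18 like Mlx (r = 0.97, rho = 0.94).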

How the data were processed

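Per the labels, each library is a Drop-seq digital expression table, and the deposited values are counts of UMIs per gene and barcode, not normalized by the authors. Bowtie2 2.2.7 and the mm10 build are named per the submitters' processing notes. Whether counting used strand is not given in the sources used here.

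Barcodes with at least 500 UMIs, 500 genes and a mitochondrial share of 50% or less were used. A barcode was given the class, of 12, with the most marker UMIs, at least 2, and ties were left out. Convoluted markers were Slc5a2, Slc5a12, Slc4a4 and Slc22a6, and straight markers Slc22a7, Slc22a30, Cyp7b1, Atp11a, Slc5a8, Slc22a19 and Serpina1f. No doublet caller was run. At most 4 barcodes were shared by a pair of libraries. Counts were summed per library and class (at least 10 barcodes) and tested with edgeR 4.0.16 in R 4.3.3: TMM scaling, filterByExpr, the quasi-likelihood F test and Benjamini-Hochberg adjustment over all genes tested, with a threshold of 0.05. All libraries of a segment shared one fit. The standard error is the log2 change divided by the square root of F. Straight against convoluted, Havcr1 and the test of segments over days used the library as a block. DESeq2 1.42.0, DESeq2 size factors, other gates and filters, and leaving out each library were alternatives. Total scaling and a gate without Slc22a6 were added after seeing the data. The fits were tested on simulated data. They recovered 17% to 40% of 2-fold and 88% to 100% of 4-fold changes in the comparisons of days. For straight against convoluted the shares were 97% and 100%, for Havcr1 88% and 100%, and for segments over days 5% and 60%. A missed call between days, or for segments over days, is therefore weak evidence of no change. The 2 libraries of each replicated day were distinct beyond sampling noise. Intervals are at 95% and cover counting error only, and a count of 0 is given the limit of 3 counts.

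All 8 members are named. From each of the other lists, at most 3 genes per direction and comparison, those with the largest change past the threshold, could be named, and at most 3 genes most like a member, by r among genes of average log2 CPM of at least 5. A few genes that this rule would name are not reported here. The members and lists were chosen with earlier results of these data known.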

Additional observations from a re-analysis of the deposited data

How the results depend on the processing

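Of 1509 recomputed log2 changes of the 8 members over 9 comparisons, 1321 kept their direction and their side of the threshold, 73 lost the call, 67 gained it and 48 changed sign, 5 of them from a called value. Members called on day 7 in convoluted barcodes went from 6 to 3 without Slc22a6 in the gate. On day 14 they ranged from 2 to 5 when a library was left out. In straight barcodes on day 7 they went from 5 to 1 by DESeq2, to 3 at a gate minimum of 3 UMIs and to 3 in a fit of only the 2 groups, and ranged from 3 to 5 without a library. The straight rise to day 11 kept 3 calls under total scaling. On day 14 straight barcodes gave 3 calls without a filter on low counts and under total scaling, 2 without Slc22a7 in the gate or at a mitochondrial share of at most 25%, 5 in a fit of only the 2 groups, 0 by DESeq2 (1 by edgeR), and 1 to 3 without a library. The test of segments over days gave 6 calls with no condition on other classes, and 0 to 1 without a library. Values that changed sign are given next. Under total scaling, they were Slc6a18 0.18 (convoluted day 7 against control), Slc7a9 -0.30 (convoluted day 7 to day 11), Slc6a18 0.0851, Slc7a7 0.81, Slc7a8 0.498 (straight day 7 against control), Slc7a7 -0.61, Slc3a2 -0.60 (straight day 7 to day 11). Without Slc22a6 in the gate, they were Slc6a18 0.0900 (convoluted day 7 against control), Slc7a7 0.28, Slc3a2 0.0685 (convoluted day 7 to day 11), Slc6a18 -0.33, Slc6a19 0.26, Slc7a7 0.16, Slc7a13 0.66 (day 7 less day 11, straight less convoluted). With no condition on other classes, they were Slc7a8 0.0235, Slc7a9 -0.70 (straight day 7 against control), Slc6a18 -0.30, Slc7a13 -0.38, Slc3a1 -0.88 (straight against convoluted), Slc6a18 -1.60, Slc7a8 0.78 (day 7 less day 11, straight less convoluted). At a gate minimum of 3 UMIs, they were Slc7a7 0.13 (straight day 7 against control), Slc7a7 -0.20 (straight day 7 to day 11), Slc7a7 0.21 (day 7 less day 11, straight less convoluted). Without the top 1% of barcodes by UMIs, they were Slc7a7 0.20, Slc7a8 0.0201 (straight day 7 against control), Slc7a7 -0.0816 (straight day 7 to day 11), Slc6a18 -0.37, Slc7a7 0.17 (day 7 less day 11, straight less convoluted). By DESeq2, they were Slc7a7 0.0685 (straight day 7 against control), Slc6a18 -0.0250 (day 7 less day 11, straight less convoluted). With DESeq2 size factors in edgeR, they were Slc7a7 0.00942 (straight day 7 against control). At a mitochondrial share of at most 25%, they were Slc7a7 0.00511 (straight day 7 against control). With each library left out in turn, the log2 changes that took both signs ranged for Slc7a7 from -0.56 to 0.297, Slc3a2 from -0.53 to 0.0769 (convoluted day 7 to day 11), Slc7a7 from -0.23 to 0.0214, Slc7a9 from -0.20 to 0.59 (straight day 7 against control), Slc3a2 from -0.0668 to 0.32, Slc7a7 from -0.44 to 0.60 (straight day 7 to day 11), Slc6a18 from -0.42 to 0.14, Slc7a7 from -0.53 to 0.24 (day 7 less day 11, straight less convoluted). Apart from fewer libraries or genes entering a fit, the cause was not tested.

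Counts over all genes ranged, from the value reported to the lowest and highest alternative, over 5074 (3361 to 7009) for convoluted day 7 against control, 958 (260 to 2630) for day 14 and 5286 (3581 to 7589) for day 7 to day 11. They were 4294 (1570 to 6105), 1196 (91 to 2849) and 4041 (1792 to 5967) in straight barcodes, 1847 (1337 to 5606) between segments, 336 (29 to 1297) for the difference between segments and 2437 (1117 to 2779) for Havcr1. With the replicate number as a block, in fits of days 7, 11 and 14 only, the convoluted and straight changes from day 7 to day 11 gave 5 calls each, where 5347 and 3914 genes were called. No call of a member that these fits tested changed. Deviations of same-numbered libraries correlated at 0.254 (convoluted) and 0.153 (straight) between days 7 and 11. They correlated at 0.0173 and 0.0339 between days 7 and 14, and at -0.00681 and -0.0713 between days 11 and 14. Whether the numbers pair the libraries of days 7 and 11 is not settled. Depth limits the straight values: counts of members there ran from 0 to 22 on days 1 and 2 and in the first library of day 7, against 26 to 14209 in convoluted sums.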
